A study of Sorghum bicolor with 8 samples.

Results

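The dwarfing genes Dw1, Dw2 and Dw3 are height genes of sorghum, and their transcript levels were compared here in prop roots grown at elevated or ambient CO2. They were chosen by identifier, as Sobic.009G229800 (Dw1), Sobic.006G067700 (Dw2) and Sobic.007G163800 (Dw3), and all 3 were found among the 34129 genes of the deposited table. The table itself holds no gene names, so the names rest on the assignment of these identifiers in the sorghum literature. All 3 genes were among the 16280 that the authors tested.

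Loss-of-function alleles of these genes shorten the stem internodes of grain sorghum, and breeders combined them to obtain short plants. Dw1 encodes a protein that promotes brassinosteroid signalling, in which it acts on the kinase BIN2, a negative regulator of that pathway. Dw2 encodes a protein kinase of the AGC class, related to the kinase KIPK of Arabidopsis. Dw3 encodes an ABCB transporter that carries auxin out of cells and is the sorghum counterpart of maize Brachytic2. Prop roots grow from the lower nodes of the stem above the ground, next to the internodes in which these genes are best known to act.

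RNA was sequenced from prop roots of the sorghum cultivar BRS330. The elevated group grew in air of 800 µmol CO2 per mol and the ambient group in 400 µmol per mol, and the labels give 4 libraries for each. Both groups were short of water: per the labels' protocols, daily water was cut by 70%, to 0.45 L, at 60 days after planting and stayed there for 30 days. No well-watered group is among the samples, so the levels below are those of roots under water deficit, and the labels do not give the alleles that BRS330 carries at the 3 dwarfing loci. Separate plants for each library are not stated in the labels, so p-values may measure technical spread only.

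The deposited table gives 1 value per gene and group, in FPKM (fragments per kilobase, scaled by transcript length and library size), pooled by the authors over the libraries of a group. No single library has a value in it, so levels carry no SD, whether single libraries of the groups overlap was not tested, and read depth is unknown. The labelled tissue was not checked against marker genes, since the table pairs identifiers with no names. A gene was called changed where the authors' q-value was under 0.05.

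None of the 3 dwarfing genes was called changed by elevated CO2. Their pooled levels at elevated CO2 lay above the ambient ones by 46.9% for Dw1, 31.9% for Dw3 and 1.36% for Dw2. Over all tested genes 11.5% were called, 2.42% as higher and 9.04% as lower at elevated CO2, so a set of 3 genes without a call is not far from that background. In bulk roots, more cells of a type that expresses a gene and more RNA per cell cannot be told apart.

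Dw1, the brassinosteroid component, was at 4.27 FPKM in the elevated group, against 2.91 FPKM in the ambient group. In the authors' deposited table this is a log2 ratio of 0.55, or 1.47-fold, with p = 0.134 and q = 0.459, which did not pass. It was the largest ratio of the 3 genes. A log2 ratio at least that high was shown by 7.72% of all tested genes, and one at least that large in either direction by 23.8%. The gene lies on chromosome 9 from 57038652 to 57041166, as deposited, and shares its locus with no other annotated gene.

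Dw3, the auxin exporter, was at 3.55 FPKM in the elevated group and 2.69 FPKM in the ambient group. The authors' deposited table gives a log2 ratio of 0.40, or 1.32-fold, with p = 0.192 and q = 0.565, again short of the threshold. Of all tested genes 33.2% had a ratio at least that large in either direction. Dw3 lies on chromosome 7 from 59821904 to 59829921 and has a locus of its own, 8017 bp long, longer than that of 85.2% of tested genes. ABCB transporters form a gene family, and whether reads shared with related genes entered its value was not tested.

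Dw2, the AGC kinase, had nearly the same pooled level in both groups, at 8.25 FPKM at elevated CO2 and 8.14 FPKM at ambient CO2. The log2 ratio in the authors' deposited table was 0.02, with p = 0.935 and q = 0.991. Of all tested genes, 95.2% had a larger absolute ratio or an equal one. Its locus, alone on chromosome 6 from 42803036 to 42807520, spans 4484 bp, close to the median of 4033 bp over tested genes.

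**Figure D1:**
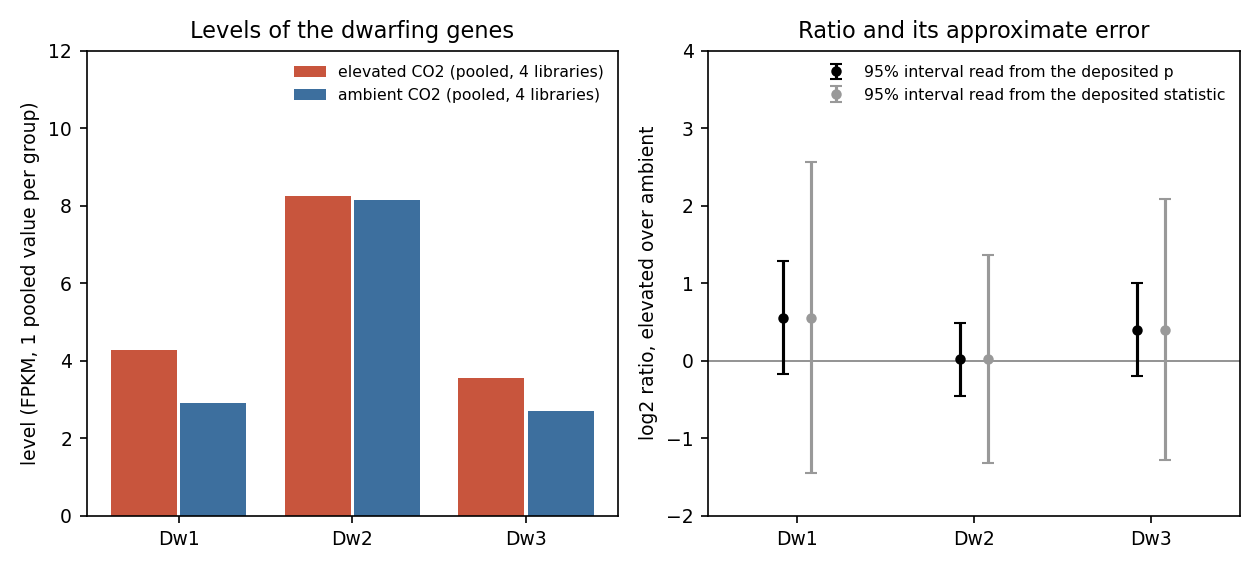
Left, pooled FPKM (1 value per group, no error bar possible) of Dw1, Dw2 and Dw3 at elevated and ambient CO2; right, log2 ratio of elevated over ambient CO2 with approximate 95% intervals read from the deposited p-value (black) and from the deposited test statistic (grey). Dw2 is highest in both groups. All 6 intervals include 0, which follows directly from the deposited p-values and statistics and is no separate test.

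FPKM is scaled to transcript length, so levels can be set side by side between the genes. The order was the same at both CO2 levels, Dw2 above Dw1 above Dw3. Dw2 was 1.93 times as high as Dw1 in the elevated group and 2.80 times in the ambient group. It was at 2.32 times the level of Dw3 at elevated CO2 and 3.02 times at ambient CO2. Dw1 and Dw3 were close neighbours in this order, with Dw1 at 1.20 times the level of Dw3 at elevated CO2 and 1.08 times at ambient CO2. Without a spread between libraries, no step of this order could be tested. Nor were the ratios of the 3 genes tested against each other: that of Dw1 was 0.54 above that of Dw2 on the log2 scale.

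The 3 levels summed to 16.1 FPKM in the elevated group and 13.7 FPKM in the ambient group. Dw2 made up 51.3% of that sum at elevated CO2, against 59.2% at ambient CO2. Dw1 held 26.6% at elevated and 21.2% at ambient CO2, and Dw3 held 22.1% at elevated and 19.6% at ambient CO2.

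All 3 genes were expressed at modest levels for this tissue. The median tested gene was at 12.6 FPKM in the elevated group and 13.1 FPKM in the ambient group, above each of the dwarfing genes. Among all 34129 listed genes, many of them at or near 0, Dw2 ranked 10237th at elevated and 10475th at ambient CO2. Dw1 ranked 13116th at elevated and 14889th at ambient CO2, and Dw3 13869th at elevated and 15144th at ambient CO2. Among tested genes alone, Dw3 was higher than 14.8% at elevated and 7.03% at ambient CO2. Dw1 was higher than 19.5% at elevated and 8.59% at ambient CO2, and Dw2 higher than 37.1% at elevated and 35.7% at ambient CO2. No tested gene had less than 2.03 FPKM in its higher group, so Dw1 and Dw3 sit near the lower end of the range in which the authors tested at all.

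**Figure D2:**
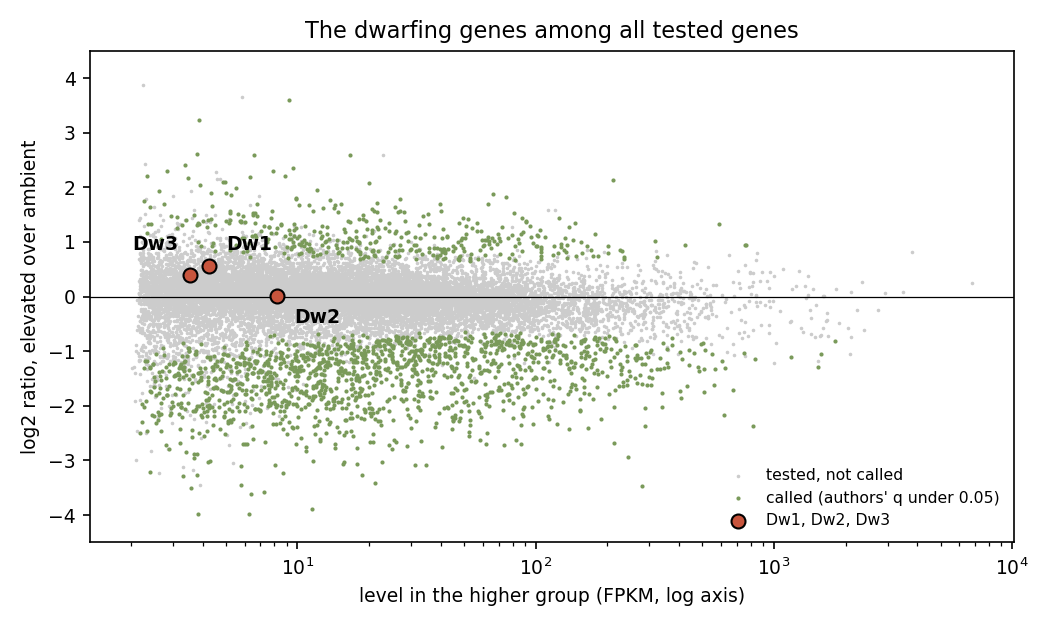
Log2 ratio of elevated over ambient CO2 against the level in the higher group (FPKM, log axis) for tested genes, with called genes in green and the 3 dwarfing genes in red; 6 tested genes with a defined ratio lie outside the plotted range of 4.5 in either direction. Dw1 and Dw3 lie at the left edge of the cloud, and all 3 dwarfing genes lie among the grey genes that were not called.

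At such levels only larger changes passed the authors' test. Of the 3078 tested genes under 5 FPKM in the higher group, the class of Dw1 and Dw3, 1.30% were called higher. The smallest called rise with a defined ratio in that class was 0.84 on the log2 scale, or 1.79-fold, in the authors' deposited table. Among genes of the class with a log2 ratio of 0 to 0.5, where Dw3 lies, 0 of 1206 were called. That is not particular to low levels: over all tested genes, 0 of 6121 in this range were called. The smallest called rise with a defined ratio over all tested genes was 0.65 on the log2 scale in the authors' deposited table. For ratios from 0.5 to 1, which include that of Dw1, 5 of 295 were called (1.69%). From 1 to 1.5, 17 of 68 were called, so most rises in that range did not pass at these levels.

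In the class of Dw2, the 6750 tested genes of 5 to 20 FPKM, 2.30% were called higher and the smallest called rise was 0.68 in the authors' deposited table (log2 scale, 1.61-fold). Of its 2812 genes with a ratio of 0 to 0.5, where Dw2 lies, 0 were called, as in that range over all tested genes. Calls were made for 54 of 495 genes with a ratio from 0.5 to 1 and for 69 of 100 with a ratio from 1 to 1.5, larger shares than under 5 FPKM. In both classes some larger rises were not called, up to a log2 ratio of 6.45 in the class of Dw2 and 3.86 in that of Dw1 and Dw3 in the authors' deposited table. For none of the 3 genes does the absence of a call show equal levels.

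An approximate error can be read from the deposited p-values, if each is taken as the two-sided p of a normal deviate. For Dw1 the standard error of the log2 ratio is then 0.37 and the 95% interval runs from -0.17 to 1.28, that is, 0.888- to 2.43-fold. For Dw3 the interval runs from -0.20 to 0.999 (0.870- to 1.998-fold), and for Dw2 from -0.45 to 0.49 (0.732- to 1.40-fold). The authors' deposited table also holds a test statistic per gene, at 0.54 for Dw1, 0.03 for Dw2 and 0.46 for Dw3. Taken as a normal deviate instead, it gives intervals about 2.8 times as wide: -1.45 to 2.56 for Dw1, -1.32 to 1.36 for Dw2 and -1.29 to 2.09 for Dw3. The authors' q-values, and so the calls used here, follow from the deposited p-values and not from this reading of the statistic. No header or label says how the statistic was scaled.

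Other genes with nearly the same pair of values were set beside each dwarfing gene, to see how the authors' test differs between genes of like level. Likeness was measured as the distance between genes in log2 FPKM over the 2 pooled values, elevated and ambient, which are all the conditions there are. Nearest to Dw1 was Sobic.008G111500, at 4.25 FPKM in the elevated and 2.92 FPKM in the ambient group (distance 0.0097), with q = 0.748 in the authors' deposited table. Next came Sobic.001G112000, at 4.31 FPKM at elevated and 2.89 FPKM at ambient CO2 (distance 0.015), with q = 0.310 there. The locus of Sobic.008G111500 spans 582 bp and that of Sobic.001G112000 spans 8754 bp, against 2514 bp for Dw1. Within a distance of 0.1 of Dw1 lay 27 tested genes, with p from 0.0621 to 0.542 and a median of 0.140, close to the p of Dw1. Log2 ratios also differ within this distance, so the range of p does not reflect differences in the test alone.

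The genes most like Dw3 were Sobic.001G190400, at 3.56 FPKM at elevated and 2.70 FPKM at ambient CO2 (distance 0.0067), and Sobic.006G248200, at 3.598 FPKM at elevated and 2.69 FPKM at ambient CO2 (distance 0.019). In the authors' deposited table their q-values were 0.665 and 0.849. Their loci span 3817 bp and 542 bp, against 8017 bp for Dw3. For the 39 tested genes within 0.1 of Dw3, p in the authors' deposited table ran from 0.113 to 0.757, with a median of 0.276. Of these genes, 5 had a smaller p than Dw3, and here too the ratios differ within the distance. Most like Dw2 were Sobic.010G278100, at 8.21 FPKM at elevated and 8.14 FPKM at ambient CO2 (distance 0.0062), and Sobic.005G139000, at 8.29 FPKM at elevated and 8.11 FPKM at ambient CO2 (distance 0.0081). Of the 137 tested genes within 0.1 of Dw2, 112 had a smaller p than Dw2. The log2 ratio of Dw2 was only 0.02, so genes within this distance could readily have a larger absolute ratio. This count alone therefore does not show how the test differs between genes of like level. The table pairs none of these identifiers with a name, and likeness over 2 values says nothing of shared function.

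The annotated genes next to each dwarfing gene, 5 on each side in the order of the deposited loci, were looked at for changes nearby. Of these 30 neighbours 15 were tested and 2 were called, 1 in each direction, not far from the share called over all tested genes. Next to Dw1, 2555 bp away, Sobic.009G229700 rose to 9.92 FPKM in the elevated group, against 4.72 FPKM in the ambient group. Its log2 ratio in the authors' deposited table was 1.07, with q = 0.00633. The ratio of Dw1 was positive as well, without passing, and the difference between both ratios was not tested. The 3 other tested neighbours of Dw1 had negative log2 ratios, from -0.43 to -0.19 in the authors' deposited table, and none was called. The remaining 6 were under 1 FPKM in both groups and were not tested.

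Near Dw3, the called neighbour was Sobic.007G163500, 3 genes away. It fell to 1.45 FPKM in the elevated group, against 4.59 FPKM in the ambient group (log2 ratio -1.67, q = 0.00112 in the authors' deposited table), while the ratio of Dw3 was positive and not called. The 4 other tested neighbours had positive ratios. For Sobic.007G163901, the next gene after Dw3, the pooled level was 13.6 FPKM at elevated and 6.75 FPKM at ambient CO2, with q = 0.0905 in the authors' deposited table. Sobic.007G163600 was at 21.3 FPKM at elevated and 12.3 FPKM at ambient CO2, and Sobic.007G164000 at 27.6 FPKM at elevated and 18.3 FPKM at ambient CO2. With q = 0.115 and 0.108 in the authors' deposited table, neither passed, although all 3 had an unadjusted p under 0.05.

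Around Dw2 nothing was called. Its 6 tested neighbours had log2 ratios between -0.26 and 0.24 in the authors' deposited table, 4 of them positive and 2 negative. Sobic.006G067600, which ends 520 bp before the start of the Dw2 locus, was at 17.3 FPKM in the elevated group and 20.6 FPKM in the ambient group. The strand on which any of these genes lies is not in the table.

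**Figure D3:**
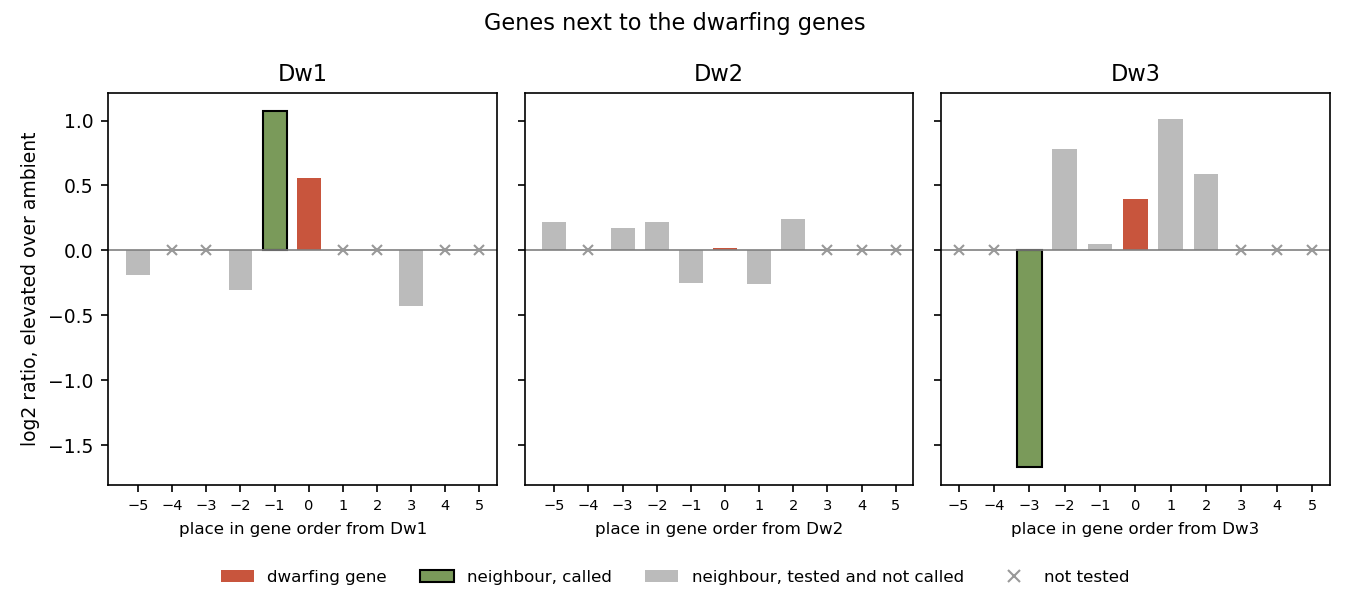
Log2 ratio of elevated over ambient CO2 for each dwarfing gene (red, place 0) and the 5 annotated genes on each side in gene order; green bars with an outline are called neighbours, grey bars are tested neighbours that were not called, and crosses are genes that were not tested. Called neighbours are seen 1 place from Dw1 (1.07) and 3 places from Dw3 (-1.67), and none beside Dw2.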

How the data were processed

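Per the submitters' processing notes, the tools were Trimmomatic 0.36, HISAT2, Cuffdiff and Cufflinks 2.2.1; settings, genome build and library normalization are not given in the sources used. What the authors deposited, per the file headers, was 1 pooled FPKM value per gene and group, the log2 ratio of elevated over ambient CO2, a p-value, a q-value and a test statistic, which is an unbounded score. The deposited log2 ratios of the 3 genes matched their FPKM values within 3.55e-06. Deposited q-values matched a Benjamini-Hochberg adjustment over all 16280 tested genes within 5.25e-07.

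Python 3.11.15, pandas 2.3.3 and scipy 1.17.1 were used. The dwarfing genes, their neighbours (5 on each side) and, for each, the 2 genes nearest by log2 FPKM were named by rule. These genes and rules were chosen with earlier results of these data known; the level classes, the distance of 0.1 and the approximate intervals were added later. Coordinates follow the deposited loci, whose counting base (0 or 1) no header states. Lists of auxin transport, brassinosteroid and gibberellin genes were planned by name and not used, since 0 identifiers matched the RefSeq table (assembly Sorghum_bicolor_NCBIv3). Sequences were not used here.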

Additional observations from a re-analysis of the deposited data

How the results depend on the processing

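Dw1, Dw2 and Dw3 kept a positive log2 ratio and stayed without a call under all 8, 9 and 8 alternatives run for them. None of these could have ended otherwise. A pseudocount keeps the sign, and all 3 scalings shift upward with the deposited q kept. A stricter threshold or the smaller statistic can add no call. A recomputed q cannot be below the authors' p, at least 0.134 here. Over tested genes with a locus of their own q was 0.438 for Dw1, 0.988 for Dw2 and 0.543 for Dw3. The log2 ratio ranged from 0.43 (pseudocount of 1 FPKM) to 0.73 (equal summed FPKM) for Dw1, from 0.02 to 0.19 for Dw2 and from 0.30 to 0.57 for Dw3. Scaling to equal summed FPKM moves every gene by 0.17, scaling to an equal upper quartile by 0.11 and centring on the median by 0.03, so each of these shifts is larger than the ratio of Dw2 itself. A q over tested genes of at least 5 FPKM was computed for Dw2 only (q = 0.991), as Dw1 and Dw3 are below that level.

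Some background counts moved by more than 1.5 times. At q under 0.01 the table holds 185 genes called higher and 974 called lower, against 394 and 1471 at 0.05, and with an absolute log2 ratio of at least 1 it holds 227 called higher and 1158 called lower. With q recomputed over tested genes of at least 5 FPKM, 363 were called higher and 1298 lower. With the deposited statistic read as a normal deviate, an alternative chosen after seeing the data, 0 genes were called higher and 0 lower after Benjamini-Hochberg adjustment; 223 genes had an unadjusted p under 0.05, against 3361 by the p-values in the authors' deposited table. The cause was not tested.

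No paired analysis was possible because both groups are deposited as pooled values only, although both number their libraries 1 to 4 in the titles. Leaving out a library was not run either. With read depth unknown, its part at levels as low as those of Dw1 and Dw3 was not assessed beyond the call rates by level.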

Other observations

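The deposited statistic and p-value of the dwarfing genes stand in nearly the same relation as those of other genes. The normal deviate that corresponds to the p-value was 2.77 times the absolute statistic for Dw1, 2.86 times for Dw2 and 2.81 times for Dw3. Over the tested genes in the authors' deposited table the median of this ratio was 2.82, with quartiles of 2.75 and 2.89. A p-value of 0.588 for Dw1, 0.977 for Dw2 and 0.643 for Dw3 would follow from the statistic alone, against 0.134, 0.935 and 0.192 in the authors' deposited table. None of the 3 genes passes on the deposited p-values, and the statistic, which gives larger ones, could not have changed that.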
